A study of Mus musculus with 7 samples.

Results

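ATP-binding cassette (ABC) genes were taken as every row of the deposited table whose symbol begins with Abc, a subfamily letter from a to g and a number. The rule found 19 of the 7091 genes in the table. GENCODE M21 annotates 50 mouse genes with such symbols, and the other 31 are not among these 7091 genes and were not analysed here. Abca12, the gene deleted in the mutants, is among those 31, so it is not among the genes that the authors called as different. Whether its RNA changed was not tested here.

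RNA of separated epidermis was sequenced from 7 mice whose hair follicles were at rest (telogen). The 4 KA mice had the genotype K14-CreERT;ABCA12-cKO, in which tamoxifen activates a Cre recombinase driven by the keratin 14 promoter of basal keratinocytes. The 3 controls were ABCA12-c/c, with the conditional allele and no CreERT. All 7 received tamoxifen at 8 weeks of age, dosed on 3 successive days at 1 mg for each 40 g of body weight, and skin was taken 2 weeks later. Controls thus share the allele and the drug, and the deletion cannot be told apart from the presence of an active recombinase. The animal numbers form a lower run (controls 1 and 2, KA 1 and KA 2) and a higher run. KA 1 and KA 2 were males and KA 3 and KA 4 females. Control 2 was a male, and controls 1 and 3 were females.

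ABC proteins bind ATP through a pair of conserved cytoplasmic domains. Most use it to move lipids, sterols, peptides or conjugated metabolites across a membrane. Subfamily A holds large lipid transporters, among them Abca12, which loads glucosylceramides into the lamellar bodies of upper keratinocytes, the vesicles that deliver barrier lipids. Members of subfamilies E and F lack membrane-spanning parts and act on ribosomes and translation.

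Only genes that the authors called at 0.05 after adjustment are in the table, so membership was fixed on these same libraries and a new test of a listed gene is a description. Reads in listed genes ran from 9590718 to 12761458 per library and are not sequencing depths. Of the 19 ABC genes, 17 had enough reads to be fitted. All 17 passed at 0.05 (quasi-likelihood fit of edgeR, Benjamini-Hochberg adjustment across 6749 listed genes), where the background was 100%. Of these, 9 were higher in KA and 8 lower, against 52.7% and 47.3% of all listed genes tested. With library scaling recomputed from the listed genes by the RLE method 14 passed, 6 higher and 8 lower, and 88.4% of all listed genes tested did, 40.9% higher. P-values set the difference between groups against the spread between mice of a group. In bulk RNA, fewer cells of a type and less RNA per cell cannot be told apart. In none of the 19 did any of the 4 KA libraries reach into the range of the 3 controls, a separation found in 93.3% of listed genes. These shares are near the background, so the results are the sizes and identities of the differences.

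Among the listed genes, direction followed the subfamily letter in part. In subfamily A all 4 listed genes, of 16 annotated, were lower in KA, with few reads for Abca4 and Abca9. In subfamilies E and F all 4 annotated genes were listed and higher. Of all listed genes tested, 47.3% passed as lower and 52.7% as higher. Subfamilies B, C and G held genes of both directions, with 2 of 4 higher in C and 1 of 3 in G. The single listed gene of subfamily D was lower. The median log2 fold change of the 17 fitted genes was 0.36, and that of all listed genes tested was also 0.36. For the 13 fitted genes of subfamilies A, B, C, D and G the median was -0.68.

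Promoter stretches are shown for 4 genes: the lipid transporters Abca5 and Abca4, with the largest fitted falls, and Abcf1 and Abcf2, the most abundant listed ABC genes per length, which rose by small amounts. Each run is the 150 bases before the annotated starts, 5′ to 3′ on the gene's strand, from RefSeq on GRCm38.p6. Capitals mark matches on either strand to 4 short motifs. The GC box was searched with the letters GGGCGG. For the CCAAT box the name gives the letters. The TATA box was searched as TATAAA, and the E-box as the letters CACGTG.
Abca5, chr11:110337717-110337866, minus strand: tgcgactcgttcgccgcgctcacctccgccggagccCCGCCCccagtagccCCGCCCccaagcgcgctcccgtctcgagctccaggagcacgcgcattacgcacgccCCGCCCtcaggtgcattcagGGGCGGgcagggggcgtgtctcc
Abca4, chr3:122044293-122044442, plus strand: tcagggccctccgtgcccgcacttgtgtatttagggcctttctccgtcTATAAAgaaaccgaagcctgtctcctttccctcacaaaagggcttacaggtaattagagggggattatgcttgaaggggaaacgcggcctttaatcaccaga
Abcf1, chr17:35969762-35969911, minus strand: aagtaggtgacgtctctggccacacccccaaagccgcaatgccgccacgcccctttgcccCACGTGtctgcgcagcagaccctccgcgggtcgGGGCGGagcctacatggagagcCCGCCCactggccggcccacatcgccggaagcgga
Abcf2, chr5:24577468-24577617, minus strand: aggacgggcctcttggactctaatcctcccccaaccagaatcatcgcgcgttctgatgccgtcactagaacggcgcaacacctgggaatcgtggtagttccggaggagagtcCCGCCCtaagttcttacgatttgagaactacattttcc

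The Abca5 stretch is 74.7% G and C and holds 4 GC box matches, and the Abca4 stretch is 50.7% G and C and holds 1 TATA box match and no GC box. The 2 strongest fitted falls thus occurred in genes whose starts differ in these letters. Abcf1 has 2 GC box matches and 1 E-box match, and Abcf2 has 1 GC box match. Promoter windows were found for 13 of the 19 ABC genes, 17 windows in all. Within 250 bases before the start, 11 of the 17 held a GC box, against 32.7% of all 32851 windows. Those 11 windows belong to 8 of the 13 genes, so some genes count more than once. A TATA box stood in 2 of the 17, against 12.4%. CCAAT stood in 3 of the 17, against 33.8%. An E-box stood in 1, against 6.02%.

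**Figure D1:**
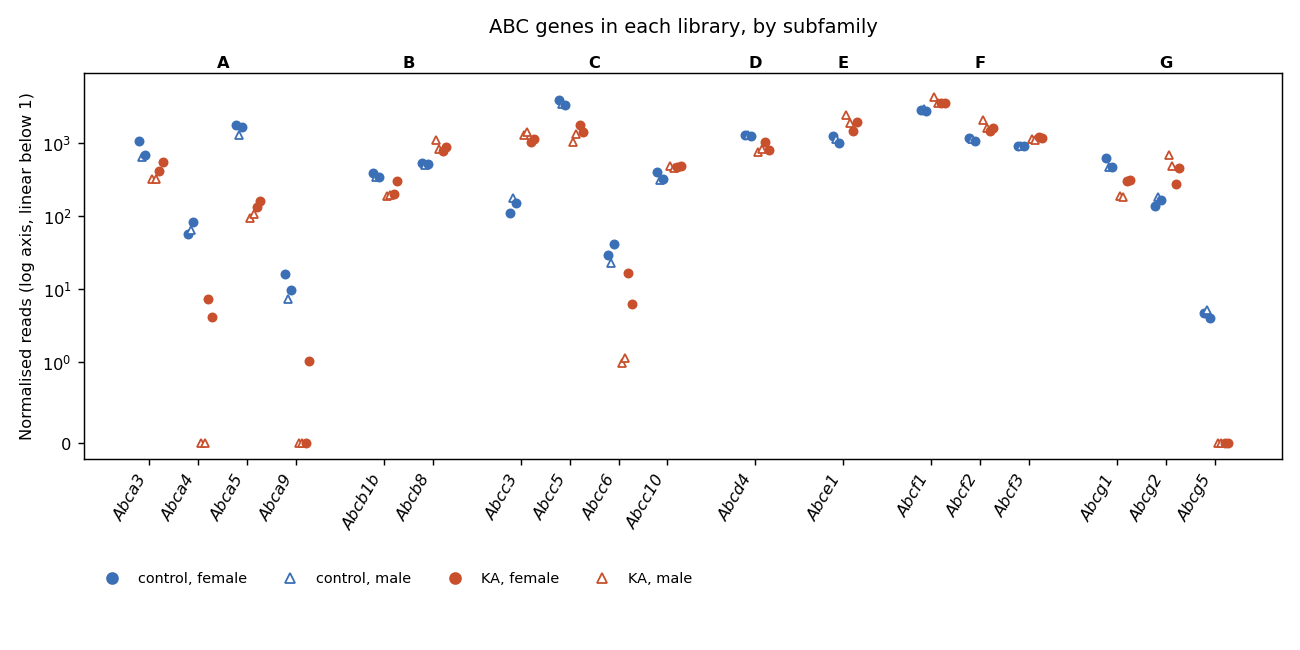
Normalised reads of 18 ABC genes in each library (log axis, linear below 1), grouped by subfamily letter; circles are females and open triangles males, blue is control and red is KA. All 4 listed subfamily A genes lie lower in KA, all E and F genes lie higher, and no gene has overlapping groups.

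In subfamily A, the genes related to Abca12, the listed genes were all lower in KA, and the 3 fitted ones fell by amounts that differed widely. Positions are those in the table, on mm10. Abca5 (ENSMUSG00000018800, chromosome 11, 110269369 to 110337716, minus strand) encodes a lipid transporter of lysosomes and late endosomes. Normalised reads were 1749, 1259.8 and 1624 across controls 1, 2 and 3, against 92.0, 105, 132 and 158 across KA 1, 2, 3 and 4. Every KA library lay far below every control. The mean was 12.7-fold lower in KA (log2 ratio -3.67, SE 0.20; adjusted p = 9.01e-07, edgeR quasi-likelihood).

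Abca4 (ENSMUSG00000028125, chromosome 3, 122044443 to 122180123, plus strand) is known as the retinoid-lipid flippase of photoreceptors. Controls 1, 2 and 3 gave 55.9, 62.9 and 82.6 normalised reads, and KA 1, 2, 3 and 4 gave 0, 0, 7.31 and 4.15. The KA males held no read and the KA females a few. The KA to control ratio was -4.49 on the log2 scale (SE 0.65; adjusted p = 0.000196, edgeR quasi-likelihood), and -5.47 without KA 3, so its size depends on a few reads.

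Abca3 (ENSMUSG00000024130, chromosome 17, 24351950 to 24410201, plus strand) fills the surfactant lamellar bodies of the lung with phospholipid. Normalised reads were 1063, 639 and 686 across controls 1, 2 and 3, against 317, 320.0, 404 and 548 across KA 1, 2, 3 and 4. Control 1 stood above the other controls, and KA 4 came closest to the controls. The KA to control ratio was -1.003 on the log2 scale (SE 0.23; adjusted p = 0.00277, edgeR quasi-likelihood). An antisense gene, D330041H03Rik, covers 9.75% of its exonic bases.

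Abca9 (chromosome 11, 110100749 to 110168196, minus strand) was too low to be fitted. Controls 1, 2 and 3 gave 16.1, 7.22 and 9.62 normalised reads, and KA 1, 2, 3 and 4 gave 0, 0, 0 and 1.04. With 36 reads in all controls and 1 read in all KA libraries, the control level was 42.0 times that of KA, with an exact 95% interval from 7.07 to 1705. Abca9 and Abca5 lie 101172 bases apart on the same strand, with Abca6 as the one annotated gene between them, which was not analysed here. In the authors' deposited table the log2 fold change of Abca9 is -5.11 (adjusted p = 0.000767).

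In subfamily B, a mitochondrial transporter rose and a drug exporter fell. Abcb8 (chromosome 5, 24393663 to 24410054), a mitochondrial inner-membrane protein of iron homeostasis, rose to 884 ± 139 normalised reads in KA (SD, n = 4) from 508 ± 17.5 in controls (SD, n = 3) (log2 ratio 0.80, SE 0.14; adjusted p = 0.000659, edgeR quasi-likelihood). KA 1 held its highest value.

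Abcb1b (chromosome 5, 8798147 to 8866315) encodes one of the mouse P-glycoproteins, exporters of drugs and other hydrophobic compounds. It fell to 221 ± 54.5 normalised reads in KA (SD, n = 4) from 353 ± 22.3 in controls (SD, n = 3) (log2 ratio -0.68, SE 0.19; adjusted p = 0.0074, edgeR quasi-likelihood). KA 4, at 302, stood apart from 189, 193 and 198 in KA 1 to KA 3. Of the 50-base windows of its longest transcript, 19.6% also occur in transcripts of other genes, most of them in Abcb1a, so how reads were divided between the pair is uncertain. Tap1, a subunit of the peptide pump that feeds MHC class I, is an ABC protein outside the symbol rule and was chosen after its values were seen. It fell to 4156 ± 760 in KA (SD, n = 4) from 6549.6 ± 1659 in controls (SD, n = 3) (log2 ratio -0.66, SE 0.19; adjusted p = 0.00751, edgeR quasi-likelihood). Among females alone Abcb1b and Tap1 did not pass (edgeR quasi-likelihood adjusted p = 0.0964 and 0.0898).

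Subfamily C, the multidrug resistance-associated proteins, held the largest fitted rise and 2 falls, of which that of Abcc6 rests on few reads. Abcc3 (ENSMUSG00000020865, chromosome 11, 94343295 to 94392997, minus strand) exports glucuronides and other conjugated organic anions. Normalised reads were 109, 176 and 148 across controls 1, 2 and 3, against 1286, 1398, 1006 and 1129 across KA 1, 2, 3 and 4. Every KA library lay far above every control. The mean was 8.34-fold higher in KA (log2 ratio 3.06, SE 0.20; adjusted p = 2.04e-06, edgeR quasi-likelihood).

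Abcc5 (ENSMUSG00000022822, chromosome 16, 20331303 to 20426394, minus strand) exports organic anions, cyclic nucleotides among them. Controls 1, 2 and 3 gave 3777, 3369 and 3244 normalised reads, and KA 1, 2, 3 and 4 gave 1036, 1313, 1728 and 1399. The highest KA library lay well under the lowest control. The KA to control ratio was -1.34 on the log2 scale (SE 0.16; adjusted p = 6.9e-05, edgeR quasi-likelihood). Abcf3 lies 122182 bases away and was higher in KA.

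Abcc6 (chromosome 7, 45967555 to 46030302) mediates ATP release, a source of the calcification inhibitor pyrophosphate, and its loss causes pseudoxanthoma elasticum. Normalised reads were 29.3, 22.7 and 40.9 across controls 1, 2 and 3, against 0.989, 1.13, 16.7 and 6.23 across KA 1, 2, 3 and 4. The KA males held 1 read each and KA 3 came near the controls. The KA to control ratio was -2.29 on the log2 scale (SE 0.66; adjusted p = 0.00783, edgeR quasi-likelihood), and -3.42 without KA 3. Abcc10 (chromosome 17, 46303221 to 46328352), another organic anion exporter, went to 469 ± 14.2 in KA (SD, n = 4) from 341 ± 49.6 in controls (SD, n = 3) (log2 ratio 0.46, SE 0.14; adjusted p = 0.0103, edgeR quasi-likelihood). Abcc10 did not pass without control 2, with scaling from the listed genes (by RLE or by TMM, a trimmed mean), among females or in the lower run of animal numbers (edgeR quasi-likelihood adjusted p from 0.0527 to 0.132).

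In subfamily D, whose other members import fatty acids into peroxisomes, the listed gene was Abcd4, which exports vitamin B12 from lysosomes. Abcd4 (chromosome 12, 84601464 to 84617413) fell to 844 ± 119 normalised reads in KA (SD, n = 4) from 1259 ± 14.1 in controls (SD, n = 3) (log2 ratio -0.58, SE 0.13; adjusted p = 0.00238, edgeR quasi-likelihood). Among females alone it did not pass (edgeR quasi-likelihood adjusted p = 0.0544).

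The genes that work on ribosomes were all higher in KA by small amounts, beside a median log2 fold change of 0.36 over all listed genes tested. Abce1 (chromosome 8, 79683462 to 79711740), the factor that splits ribosomes for recycling after termination, gave 1221, 1124 and 994 normalised reads in controls 1, 2 and 3, against 2383, 1885, 1421 and 1899.9 across KA 1, 2, 3 and 4. The groups do not overlap, and the KA values spread widely. Its log2 ratio was 0.77 (SE 0.17; adjusted p = 0.00192, edgeR quasi-likelihood). Abcf2 (chromosome 5, 24565345 to 24577467) rose to 1655 ± 259 in KA (SD, n = 4) from 1112 ± 49.6 in controls (SD, n = 3) (log2 ratio 0.57, SE 0.14; adjusted p = 0.00315, edgeR quasi-likelihood).

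Abcf1 (chromosome 17, 35956819 to 35969761), which binds the initiation factor eIF2, went to 3680.5 ± 319 normalised reads in KA (SD, n = 4) from 2799.9 ± 74.0 in controls (SD, n = 3) (log2 ratio 0.39, SE 0.11; adjusted p = 0.00751, edgeR quasi-likelihood). Abcf3 (chromosome 16, 20548577 to 20561379), the relative of yeast GCN20, went to 1145 ± 36.1 in KA (SD, n = 4) from 891 ± 4.04 in controls (SD, n = 3) (log2 ratio 0.36, SE 0.11; adjusted p = 0.00909, edgeR quasi-likelihood). These last 2 depend on scaling. RLE factors from the listed genes, which moved the median of all genes by -0.172 on the log2 scale, left Abcf1 at 0.22 and Abcf3 at 0.19, both still higher and neither passing (edgeR quasi-likelihood adjusted p = 0.0633 and 0.118). TMM factors left Abcf3 at 0.23 (edgeR quasi-likelihood adjusted p = 0.0663), and among females neither Abcf1 nor Abcf3 passed (edgeR quasi-likelihood adjusted p = 0.096 and 0.0739).

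Subfamily G held sterol exporters that were lower and a xenobiotic exporter that was higher. Abcg1 (ENSMUSG00000024030, chromosome 17, 31057698 to 31115777, plus strand) passes cholesterol to lipoprotein particles. Controls 1, 2 and 3 gave 624, 467 and 469 normalised reads, and KA 1, 2, 3 and 4 gave 185, 178, 303 and 304. Both KA males lay below both KA females, and all were below the controls. The KA to control ratio was -1.10 on the log2 scale (SE 0.22; adjusted p = 0.00131, edgeR quasi-likelihood).

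Abcg5 (chromosome 17, 84658234 to 84683011, minus strand), which pairs with Abcg8 as a sterol exporter, was near the limit of detection. It had 5 reads in each control (15 in all) and 0 in each KA library. Against a floor of 3 reads over the KA group, it was at least 5.83-fold lower in KA if the control reads are taken as exact. Counting error of the 15 control reads is not in this value. The authors' deposited log2 fold change of Abcg5 is -4.58 (SE 1.71). Exons of Abcg8, which was not analysed here, overlap 3.02% of its exonic bases on the opposite strand.

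Abcg2 (ENSMUSG00000029802, chromosome 6, 58584523 to 58695676, plus strand) exports xenobiotics, porphyrins and urate and marks stem cells that expel dye. Normalised reads were 137, 178 and 164 across controls 1, 2 and 3, against 674, 475, 269 and 449 across KA 1, 2, 3 and 4. All KA libraries were above all controls, and KA 3 was the lowest of them. The mean was 2.92-fold higher (log2 ratio 1.55, SE 0.27; adjusted p = 0.00062, edgeR quasi-likelihood).

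**Figure D2:**
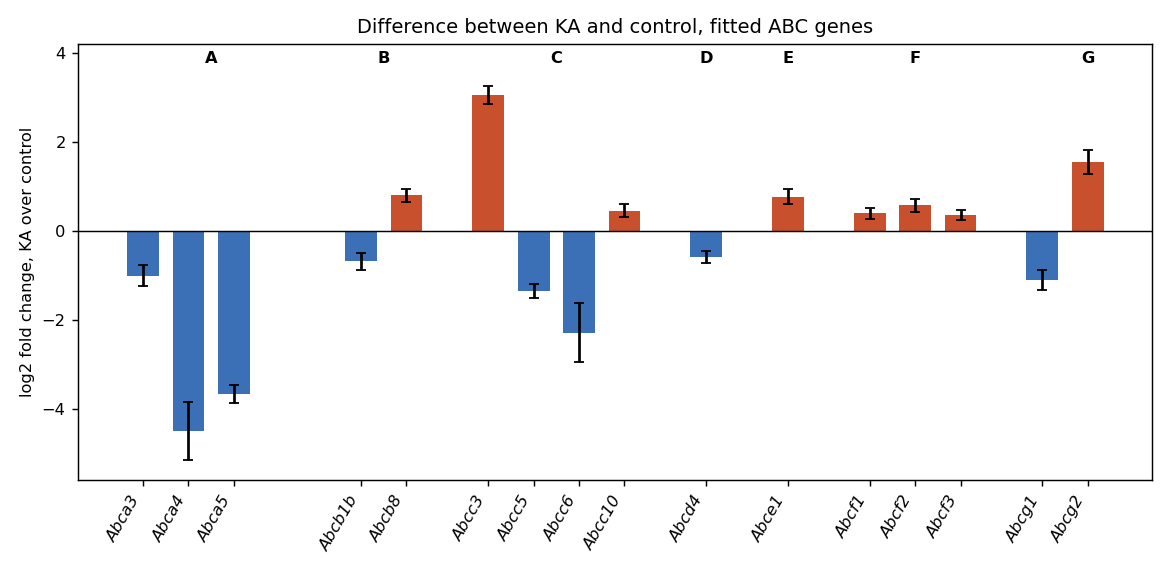
Log2 fold change, KA over control, of 16 fitted ABC genes by subfamily; bars are edgeR estimates with the authors' size factors and whiskers are standard errors. Abcc3 (3.06) and Abcg2 (1.55) stand above the other rises, and Abca4 (-4.49) and Abca5 (-3.67) are the deepest falls.

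With a log2 difference of 1 or more, 2 of the 17 fitted genes were higher, Abcc3 and Abcg2, and 6 were lower, Abca3, Abca4, Abca5, Abcc5, Abcc6 and Abcg1. Over all listed genes tested the shares were 20.5% higher and 20.8% lower. Abca3 and Abcg1 lie close to this limit. Only 4 genes were that much lower without control 1 (Abca3 at -0.74, Abcg1 at -0.95), without KA 1, without KA 2 or among females, where neither Abca3 nor Abcg1 reached it, and 5 with sex as a term, where Abca3 did not. The median size of the difference was 0.80 for the 17 genes and 0.85 for all listed genes tested, on the log2 scale.

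Levels can be compared between genes only per length, here as mean normalised reads per kilobase of the exonic length in the table. Abcf1 was first in both groups, at 635 ± 16.8 (SD, n = 3) in controls and 835 ± 72.4 (SD, n = 4) in KA, followed by Abcf2 at 433 and 644. Abcc5 held the third place of 19 in controls, at 324, and the seventh in KA, at 128. Abca5 went from 135 to 10.6 per kilobase, from the seventh to the fifteenth place. Abcc3 went from 25.4 to 211, from the fourteenth to the fifth. Neighbours in this order often did not differ beyond their spread: in KA, Abcf3 at 322 ± 10.2 (SD, n = 4) and Abce1 at 316 ± 65.4 (SD, n = 4) are such a pair. Summed over the 19 genes, subfamily A made up 8.72% of the per-kilobase level in controls and 1.80% in KA. Subfamilies E and F together made up 56.4% and 67.9%. These sums cover only genes called as different, with 4 of the 16 annotated genes of subfamily A. They are not shares of all ABC RNA.

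**Figure D3:**
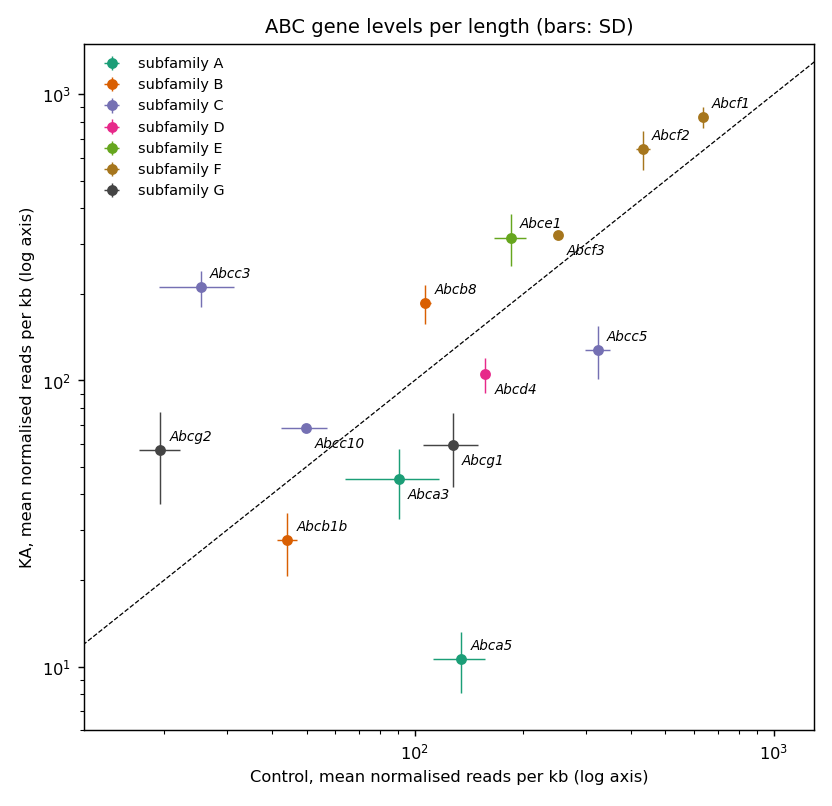
Mean normalised reads per kilobase in control (x) and KA (y), both on log axes, for 14 ABC genes above 10 in controls; bars are SDs over 3 and 4 libraries and the dashed line marks equal levels. Abcc3 and Abcg2 lie farthest above the line and Abca5 farthest below.

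The KA libraries differed among themselves, most between KA 1 and KA 3 (chi-square over its degrees of freedom of 111 across listed genes). In the 9 ABC genes higher in KA, KA 1 held the highest KA value in 7 and KA 3 the lowest in 7. Among the 10 lower ABC genes, Abcg5 was at 0 throughout, and KA 1 held the lowest value in 8 of the other 9, ties at 0 included. How often KA 1 or KA 3 is extreme over all listed genes was not counted, so this cannot be called particular to ABC genes. Both KA males lay below both KA females in 7 of the 10 lower genes, Abca3, Abca4, Abca5, Abcb1b, Abcc5, Abcc6 and Abcg1, where the share over all listed genes lower in KA was 39.5%. In the reverse order none of the 10 was found, against 4.04%. Of the 9 higher genes, 2 had both males above both females, Abcc3 and Abcg2, against 37.9% of all listed genes higher in KA. Abcf3 alone had both males below, against 4.96%. Whether the difference between genotypes depends on sex was not tested. The KA males are also both from the lower run of animal numbers and the KA females from the higher, so sex and run cannot be told apart within KA.

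Markers of cell types were looked up among the listed genes. Each listed marker had been called by the authors, so that it differs was fixed by the choice of genes. Over all listed genes tested, 52.7% passed as higher and 47.3% as lower. Sums cover listed markers only, and summed RNA does not count cells. Of the keratinocyte markers, 5 of 7 basal (2 higher, 3 lower) and 6 of 7 suprabasal (3 higher, 3 lower) are listed, all with reads in controls, with summed normalised reads per library of 536630 to 621150 (controls) and 680510 to 776380 (KA) for basal markers. The suprabasal sum ran from 197300 to 220190 and from 288980 to 459560. All 8 markers of Langerhans and dendritic cells were higher, with sums of 24000 to 33457 in controls and 46096 to 68120 in KA. Of 11 macrophage and monocyte markers 8 are listed, 6 higher and 2 lower, with sums of 842 to 1203 and 1880.2 to 2275. Neutrophil markers, 4 of 10 listed with 3 higher and 1 lower, summed to 511 to 670.4 in controls and 11207 to 65143 in KA. The 10 include S100a8 and S100a9, and whether neutrophils or other cells made this RNA was not tested. T cell markers, 4 of 10 listed with 1 higher and 3 lower, summed to 1281 to 1583 and 836 to 1065. Sebaceous gland markers, 7 of 9 listed with 6 higher and 1 lower, summed to 30749 to 43165 in controls and 51160 to 64727 in KA. None of the listed markers in these lists was at 0 in all controls. Of adipocyte and endothelial markers, 2 of 8 and 2 of 9 are listed, all higher, with sums of at most 338 per library. Both listed melanocyte markers of 7 were lower, and the 4 listed Schwann cell markers of 6 were split evenly. None of 9 dermal fibroblast, 7 mast cell or 7 muscle markers is listed. A marker that is not listed was not called, which does not show that such cells were absent. The part of any of these cell types in the ABC values was not tested.

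Genes that work beside ABC proteins were counted in 7 lists. Over all listed genes tested, the background was 100% passing, 52.7% as higher and 47.3% as lower, with a median log2 fold change of 0.36. No list was tested against these shares. The general list of translation factors, set beside Abce1 and Abcf1, had 19 of 27 genes listed and all 19 rose (median 0.62). Among them Eif6, which keeps ribosomal subunits apart, went to 10504 ± 791 normalised reads in KA (SD, n = 4) from 5045 ± 920 in controls (SD, n = 3). Eif1ax went to 2975 ± 426 in KA (SD, n = 4) from 1808 ± 110 in controls (SD, n = 3). Eif2b4 and Eif2b2, subunits of the exchange factor for eIF2, rose by 0.79 and 0.72 on the log2 scale. Among females alone 11 of the 19 passed, against 60.7% of all listed genes tested. With TMM or RLE scaling 14 passed, against 91.5% and 88.4%.

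The list of haem synthesis and iron-sulphur assembly, beside Abcb8, had 17 of 26 genes listed, 12 higher and 5 lower (median 0.63). Alas1, the first enzyme of haem synthesis, rose to 1462 ± 381 normalised reads in KA (SD, n = 4) from 645 ± 37.0 in controls (SD, n = 3). Nubp1 and Glrx5, which serve iron-sulphur clusters, rose by 0.82 and 0.91 on the log2 scale. Slc25a38, the mitochondrial glycine carrier, fell to 488 ± 54.7 in KA (SD, n = 4) from 877 ± 76.3 in controls (SD, n = 3). Among females alone 10 of the 17 passed, a share near the 60.7% of all listed genes tested.

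The glutathione and NRF2 list, beside the conjugate exporters of subfamily C, had 16 of 28 genes listed, 13 higher and 3 lower (median 0.77). Slc7a11, the cystine importer that supplies glutathione synthesis, had 8 reads in all controls together. Control libraries 1, 2 and 3 were at 3.79, 1.03 and 2.41 normalised reads, while KA 1, 2, 3 and 4 were at 822, 317, 204 and 642, a 206-fold higher mean. Srxn1 rose by 2.00 and Mgst2 by 2.23 on the log2 scale. Hpgds, a prostaglandin synthase of the glutathione transferase family, fell to 638 ± 114 in KA (SD, n = 4) from 1706 ± 252 in controls (SD, n = 3).

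The list of sterol transfer and nuclear receptors, beside Abcg1 and Abcg5, had 15 of 30 genes listed, 11 higher and 4 lower (median 0.56). Scarb1, a receptor that exchanges cholesterol with lipoproteins, rose to 233 ± 69.7 normalised reads in KA (SD, n = 4) from 41.7 ± 5.07 in controls (SD, n = 3). Soat1, which esterifies cholesterol for storage, rose by 1.22 and the receptor Ppard by 1.43 on the log2 scale. The fatty acid receptor Cd36 had 9.47, 113 and 12.8 in controls 1 to 3, so control 2 stood apart, and 449, 543, 368 and 306 in KA 1 to KA 4. Its log2 fold change was 3.24 (SE 0.75), and 5.20 without control 2. In the lower run of animal numbers Cd36 did not pass (edgeR quasi-likelihood adjusted p = 0.13). Without control 1, 9 of the 15 genes passed, against 88.3% of all listed genes tested, and among females 7, against 60.7%.

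The list of lamellar body cargo and the corneocyte lipid envelope, the pathway of Abca12 itself, had 20 of 33 genes listed, 13 higher and 7 lower (median 0.47). The ceramide desaturases Degs1 and Degs2 rose by 1.77 and 3.25 on the log2 scale. Cdsn, the corneodesmosome protein, and Sptlc3, a subunit of the first enzyme of sphingolipid synthesis, fell by 1.51 and 0.88 on that scale. Abca3 and Abca5, which are not in this list, fell, as did 7 of its 20 listed genes. Whether Abca3 and Abca5 depart from the list was not tested.

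The peroxisome list had 9 of 31 genes listed, 8 higher and 1 lower (median 0.45). It stands beside the other members of subfamily D, which have no row in the table, and not beside the lysosomal exporter Abcd4. Phyh, which starts the breakdown of branched fatty acids, rose to 1509 ± 179 normalised reads in KA (SD, n = 4) from 556 ± 130 in controls (SD, n = 3), and the thiolase Acaa1b and the carnitine transferase Crat rose by 1.91 and 0.97 on the log2 scale. Acox2 rose by 2.07, and by 2.93 without control 2. Without control 1, 5 of the 9 passed, against 88.3% of all listed genes tested, and among females 5, against 60.7%.

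The list of peptide loading for MHC class I had 6 of 16 genes listed, Tap1 among them, 3 higher and 3 lower (median 0.08). The transactivator Nlrc5 fell to 1659 ± 322 normalised reads in KA (SD, n = 4) from 3395 ± 200 in controls (SD, n = 3). Psme2, Calr and Pdia3 rose by 1.13, 1.08 and 0.81 on the log2 scale.

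**Figure D4:**
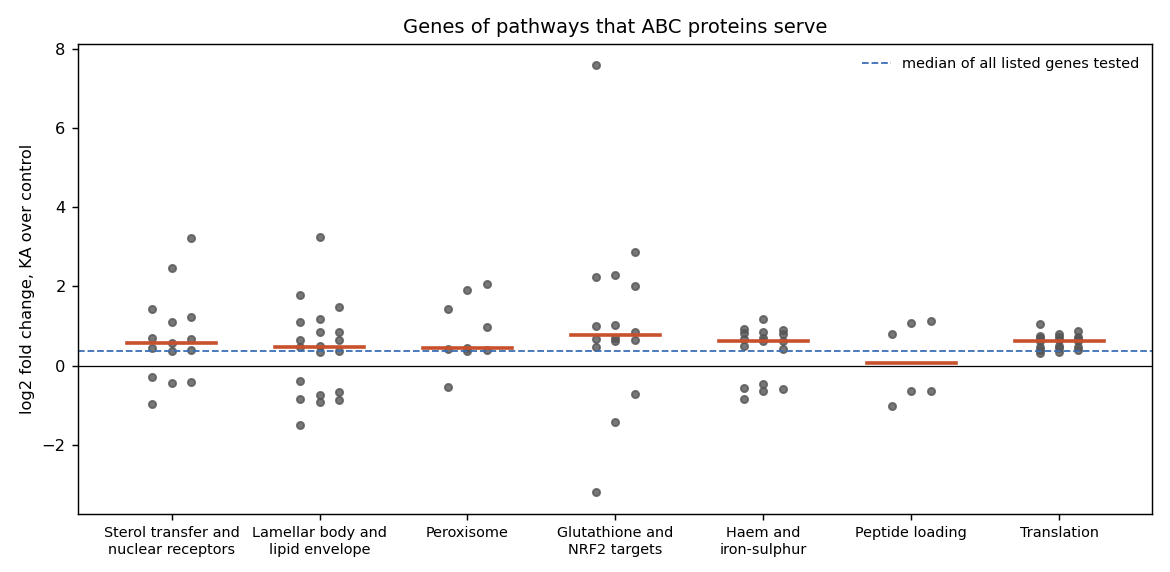
Log2 fold change, KA over control, of each fitted gene (grey points) in 7 lists of genes that work beside ABC proteins; red lines are list medians and the dashed blue line is the median of all listed genes tested. All 19 translation genes lie above 0, and the other lists hold genes on both sides.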

How the data were processed

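Bulk RNA sequencing of 7 epidermis libraries was read from 1 table of raw counts per gene, per the file headers. The authors also deposited normalized reads (a signal scale, each count over 1 size factor per library, 0.888 to 1.247), log2 fold changes, a standard error and a test score, and p-values, all listed genes having an adjusted value up to 0.04995. The submitters' processing notes name fastp, STAR 2.6.1d, featureCounts 1.5.0-p3, DESeq2 1.40.2 and mm10, with no role or order. Strand setting and annotation are not given in the sources used here.

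Counts were fitted with edgeR 4.0.16 in R 4.3.3 (filterByExpr by group, robust glmQLFit and glmQLFTest, threshold 0.05) with the authors' size factors, since factors from a selected table need not match whole libraries. The filter left out 342 genes. SEs divide each log2 ratio by the root of its F statistic. The code was tested on simulated data. Each library is 1 mouse, and same-group libraries differed by more than counting noise (chi-square over its degrees of freedom, 20.7 to 111). Per-kilobase levels use the table's lengths, identical to GENCODE M21 for 17 of 19 genes. Intervals cover counting error only, and the floor covers that of the KA reads alone.

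ABC genes, lists and markers were chosen with earlier results of these data known. Naming took all ABC genes, library values for those at a log2 fold change of at least 1, and at most 4 genes per list, by smallest adjusted p. Alternatives were TMM and RLE factors, other filters, DESeq2 1.42.0, limma-voom (limma 3.58.1), sex, animal-number run or sample number as terms, each library left out, females alone, a fold threshold and adjustment over the authors' 19407 genes. The lower run of animal numbers alone was added after the data were seen. The values of 1 ABC gene are not reported here, though it stays in the counts.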

Additional observations from a re-analysis of the deposited data

Results flagged for a closer look

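Within KA, 47 genes were searched for a single library standing apart, by the share of the range taken up by its distance to the closest other library (Dixon's test at 95%). Chance flags about 1 gene in 20, or 2.4 of the 47, and 4 were found. Abcf1 had a ratio of 0.937, with KA 1 at 4158 normalised reads and the others from 3499 to 3540.3. Abcb1b had a ratio of 0.916, with KA 4 at 302 and the others from 189 to 198. Mgst2 had a ratio of 0.844, with KA 3 at 1533 and the others from 953 to 1043. Abca9 had a ratio of 1, from a single read in KA 4 and none in the others.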

How the results depend on the processing

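Across 20 alternatives no fitted ABC gene changed direction, and 317 of 340 combinations of gene and alternative kept their side of the threshold. The fold threshold and the wider adjustment reuse the main estimates, so direction could not change there. All genes had also been called on these same libraries. Of 17 ABC genes passing, 8 did with a log2 fold change of at least 1 (2 of the 9 higher) and 11 among females alone (5 of the 9 higher). TMM and RLE factors from the listed genes gave 15 and 14, and leaving out each library gave 16 to 17. For all listed genes passing, the count of 6746 became 2783 with the fold threshold and 4081 among females. For all listed genes passing, higher in KA, 3554 became 1382 and 2144. In the lists, the fold threshold left 5 genes for sterol transfer, 6 for lamellar bodies, 3 for peroxisomes, 9 for glutathione, 1 for haem, 3 for peptide loading and 1 for translation. Females alone left 7 for sterol transfer, 5 for peroxisomes, 10 for haem and 11 for translation. Leaving out each library gave 9 to 15 for sterol transfer and 5 to 9 for peroxisomes, lowest without control 1. Without the filter Abca9 and Abcg5 were fitted as well, at -4.85 and -5.26 on the log2 scale, values that depend on the prior count.

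Sample numbers did not pair the libraries: same-numbered deviations correlated at -0.194, 0.133 and -0.097. With the replicate block, 17 ABC genes and 6069 listed genes passed. Low reads limit Abca4, Abca9, Abcc6 and Abcg5.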
